A study of Rattus norvegicus with 12 samples.

Results

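Genes of the sarcomere and its stretch-sensing apparatus were followed across the neonatal rat ventricles, namely Ankrd1, Csrp3, Tcap, Fhl1, Fhl2, Xirp1, Xirp2, Myoz2, Nrap and Des. They were chosen by gene name, as 10 of the 32545 genes listed in the deposited expression table. Sprague-Dawley rats were operated on at postnatal day 1 (P1), either by aorto-caval fistula surgery, which imposes a volume overload (VO) on the heart, or by a sham operation. The free walls were taken at P7 for RNA sequencing, and left (LV) and right (RV) ventricles of both treatments gave 4 groups (sham LV, VO LV, sham RV and VO RV) of 3 libraries. Rats of all 4 groups had been operated on, and each library is bulk myocardium. The labels do not state how many rats stand behind a library, nor whether a replicate number marks the LV and the RV of 1 rat. P values therefore measure the spread between these libraries, which may be partly technical.

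Levels are given as FPKM, fragments scaled to gene length and library size, so that genes can be compared per length. Of the 10 genes, 9 passed the filter on low values (a mean of at least 0.5 FPKM over the 12 libraries), which 13910 genes of the table passed. Differences are log2 fold changes of FPKM + 0.5 from 1 limma model of the 4 groups, with p values adjusted by the Benjamini-Hochberg method over all 13910 genes. A gene was called where the adjusted p was under 0.05 and the fold change was over 1.3. An exact two-sided permutation test of 3 libraries against 3 cannot give a p below 0.10.

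The sarcomere is anchored at the Z-disc, where titin, actin and the alpha-actinin lattice meet, and where several proteins sense tension and pass between the filament lattice and the nucleus. The ankyrin repeat protein Ankrd1 and the LIM protein Csrp3 are classical examples, and Ankrd1 transcripts are widely used as a marker of myocardial stretch. Xin-repeat proteins and Nrap lie at the intercalated disc, where myofibrils insert into the membrane, and desmin filaments tie Z-discs to each other and to the nucleus. The transcription factors SRF and MEF2 drive many genes of this kind through the CArG box and the MEF2 site.

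Promoter sequences are shown for Xirp1, Xirp2, Myoz2 and Fhl2 because they hold MEF2 or CArG matches and cover both motifs. RefSeq promoters (GRCr8) were matched by symbol for 6 of the 10 genes, with 10 transcription starts among 33469 promoters in the table. The 250 bases before each start were searched on both strands for the CArG box, the MEF2 site, the MCAT element CATTCC, the TATA box TATAAA, the E box CANNTG and GATA. Each line below gives the last 110 bases before the start, 5′ to 3′ on the gene's strand, with MEF2 sites in capitals for Xirp1 (chr8:128635012-128635121, minus strand), Xirp2 (chr3:72534076-72534185, plus strand) and Myoz2 (chr2:213852779-213852888, minus strand). For Fhl2 (chr9:52954541-52954650, minus strand) the capitals mark, in order, a CArG box, an MCAT element and a TATA box on the opposite strand.
Xirp1: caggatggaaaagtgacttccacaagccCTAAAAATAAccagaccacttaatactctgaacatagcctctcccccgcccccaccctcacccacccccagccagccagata
Xirp2: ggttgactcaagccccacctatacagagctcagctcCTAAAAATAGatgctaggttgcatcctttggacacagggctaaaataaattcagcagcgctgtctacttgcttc
Myoz2: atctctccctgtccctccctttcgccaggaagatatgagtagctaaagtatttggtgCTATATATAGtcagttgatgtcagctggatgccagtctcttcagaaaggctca
Fhl2: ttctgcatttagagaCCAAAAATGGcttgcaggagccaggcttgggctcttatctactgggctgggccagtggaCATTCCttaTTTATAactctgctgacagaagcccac

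The MEF2 site lay at −82 to −73 in Xirp1, −74 to −65 in Xirp2 and −53 to −44 in Myoz2, counted in bases from the start, with −1 the last base before it. Of the 3 listed starts of Xirp1, 2 lay after this same site, which was at −90 to −81 from the second, and 1 had no match. A MEF2 match was present in 1.68% of all promoters searched. The CArG box of Fhl2 lay at −95 to −86 from the first start, and another CArG match lay before the second start. Fhl1 also held a CArG box, at −102 to −93 from 1 of its 2 starts, and 1.5% of all promoters held one. MCAT matches occurred in 12.1% of promoters, TATA boxes in 12.9%, GATA in 55.9% and E boxes in 65.5%. The Des promoter held an E box and none of the other motifs in this window. These matches describe letters only and say nothing about binding in these samples.

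The 12 libraries had between 14121713 and 16871371 reads on genes, and the members took 0.444% to 0.678% of them. The scarcest expressed member, Xirp2, still rested on at least 710 reads in each library. Ventricular cardiomyocyte markers were abundant throughout, and of a skeletal muscle list 8 genes were in the table, with the muscle regulators Myod1 and Myog at or near 0 (at most 0.299 FPKM) and the muscle creatine kinase gene Ckm, which the heart also expresses, at 677 to 1094 FPKM. A pair of RV libraries stood apart: the summed level of 4 atrial cardiomyocyte markers was 1522 FPKM in VO RV replicate 2 and 440.1 FPKM in sham RV replicate 1, against 148 to 306 FPKM in the others. The same libraries had the lowest summed level of 9 ventricular cardiomyocyte markers (18641 and 22412 FPKM, against 26138 to 29371) and the highest of 8 fibroblast markers (4935 and 3640 FPKM, against 2063 to 3045). In VO RV replicate 2, 8 of the 9 members were below their mean over the 12 libraries. Y-linked genes summed to 56.1 to 64.9 FPKM in 5 libraries, namely sham LV replicates 1 and 2, sham RV replicates 1 and 2 and VO RV replicate 3, and to at most 0.373 FPKM in the other 7, which include every VO LV library. The sham LV libraries also stood apart in 6 endothelial markers, summing to 454 to 506 FPKM against 332 to 417 FPKM in the others, and the endothelial receptor genes Tie1 and Kdr were called higher in sham LV than in sham RV (0.54 and 0.42 on the log2 scale). Red blood cell markers summed to 13332 to 17264 FPKM in sham LV and to 6698 to 15103 FPKM in the others. Of the 9 ventricular cardiomyocyte markers, the calcium release channel gene Ryr2 was called lower in sham LV (−0.94). When the responses of the ventricles to VO were compared, LV minus RV, Ryr2 (1.61), the myosin heavy chain gene Myh6 (0.89) and the macrophage gene C1qb (−0.92) were called. The troponin gene Tnni3 had a higher mean in sham LV (3574 FPKM) than in any other group (2408 to 2625 FPKM). In bulk tissue, fewer cells of a type and less RNA per cell cannot be told apart.

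**Figure D1:**
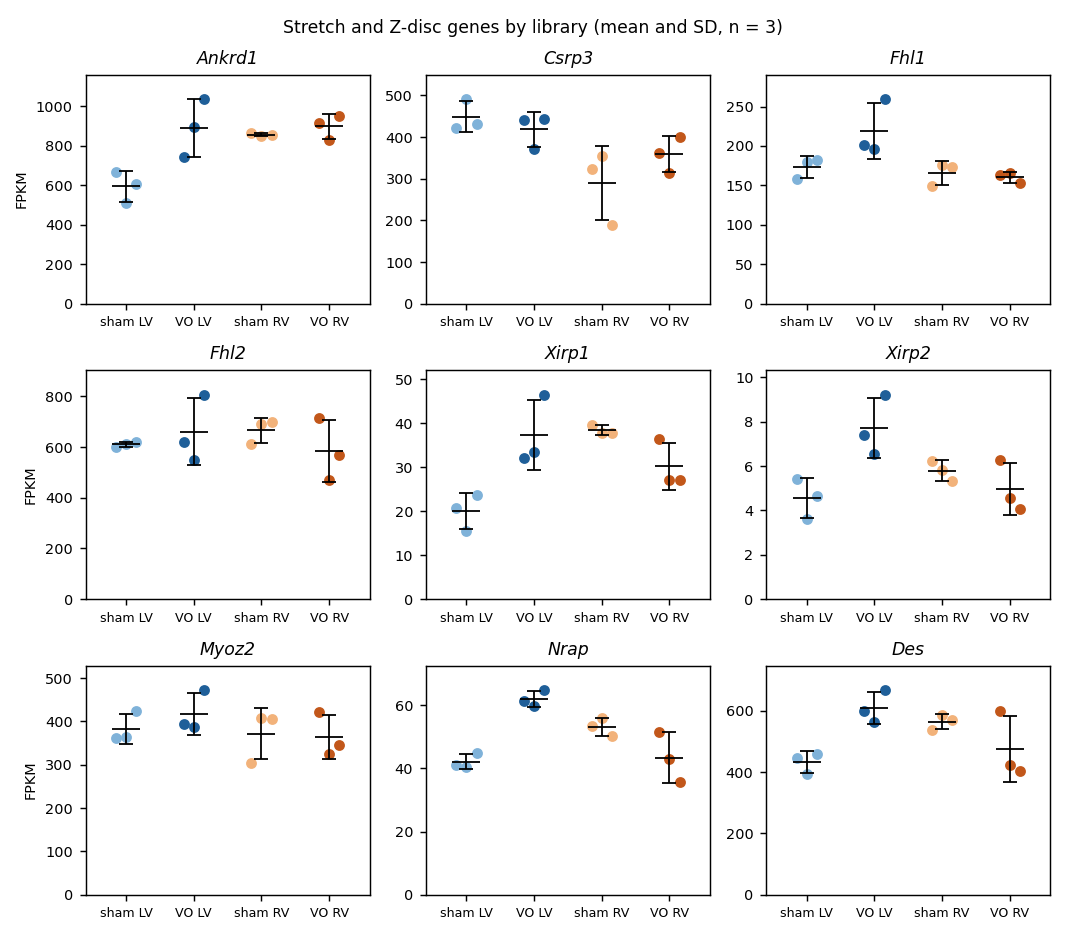
FPKM of the 9 expressed genes in each library (points) with the group mean and SD (bars, n = 3), one panel per gene and with each vertical axis starting at 0. Sham LV lies below the other groups for Ankrd1 and Xirp1, VO LV is highest for Nrap, and 1 sham RV library of Csrp3 lies at 190 FPKM.

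The transcripts spanned a wide range of abundance, with Ankrd1 at the top and the Xin proteins at the bottom. Ankrd1 had the highest mean over the 12 libraries (809.6 FPKM) and ranked 84th of all genes. It was followed by Fhl2 (630.4), Des (520.6), Myoz2 (383.9), Csrp3 (378.8), Fhl1 (179.7), Nrap (50.1), Xirp1 (31.5) and Xirp2 (5.76). Neighbouring genes kept this order in all 12 libraries from Csrp3 down and for Des over Myoz2. The order was less firm elsewhere: Ankrd1 exceeded Fhl2 in 10 libraries, but in only 1 of 3 sham LV libraries, Fhl2 exceeded Des in 11, and Myoz2 exceeded Csrp3 in 6. Xirp1 varied most, its highest library being 2.99 times its lowest, and Myoz2 least, at 1.56 times. Tcap, which encodes the titin cap telethonin, was listed at 0 in every library. Its listed length is 483 bases within a span of 684 bases, and the cause of the listing at 0 was not tested.

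Sham LV and sham RV were compared to see how the ventricles differed without the fistula. The striated muscle gene Xirp1 was lower in the LV, and it was the 1 called member of 9, against 3.86% of all 13910 genes. Xirp1 encodes Xin, an actin-binding repeat protein of the intercalated disc, and is listed at chromosome 8, positions 128702133 to 128711221 (minus strand). Its FPKM were 20.7, 15.5 and 23.6 in sham LV and 39.7, 37.8 and 37.8 in sham RV. All sham LV libraries were therefore below all sham RV libraries, with means of 20.0 ± 4.10 and 38.4 ± 1.09 (SD, n = 3). The log2 difference, LV minus RV, was −0.95 (standard error 0.18, limma adjusted p = 0.0325), a fold change of 1.93. The call was lost when sham LV replicate 1 or 2, any sham RV replicate, or VO LV replicate 2 was left out, with adjusted p from 0.0507 to 0.128. Over all genes, the 537 calls fell to between 0 and 185 in the same fits. The difference ranged from −1.08 to −0.78 over the 12 fits with 1 library left out. The call was also lost with the replicate number as a fixed block (limma adjusted p = 0.0741), where 3 genes in all were called.

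Other members differed between the sham ventricles without passing the adjusted threshold. Ankrd1 (chromosome 1, 254726969 to 254735548, minus strand) was 668, 510 and 604 FPKM in sham LV and 862, 849 and 853 FPKM in sham RV, without overlap (log2 difference −0.53, standard error 0.14, limma adjusted p = 0.0508). Csrp3, the muscle LIM protein of the Z-disc (chromosome 1, 104147206 to 104166367, minus strand), had the opposite order. It was 423, 491 and 432 FPKM in sham LV and 324, 356 and 190 FPKM in sham RV (0.68, standard error 0.20, limma adjusted p = 0.0733). Sham RV replicate 3 carried much of this difference, which was 0.40 without it. Nrap and Des were also lower in each sham LV library than in any sham RV library, with log2 differences of −0.33 and −0.39 and adjusted p of 0.109 and 0.126. Xirp2 was −0.33, but −0.19 without sham LV replicate 2 and −0.16 with the gene-length trend removed, and Fhl1, Fhl2 and Myoz2 lay between −0.12 and 0.06.

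The counts of members between the sham ventricles are set beside those of the whole table. With the fold change over 1.3 kept and the p left unadjusted (under 0.05), 4 of 9 members differed (Ankrd1, Csrp3, Xirp1 and Des), against 17.8% of all genes. The sham LV libraries lay wholly below the sham RV libraries for 4 members, against 16.6% of genes, and wholly above for 1, against 15.6%. The median log2 difference was −0.33 over the members (−0.37 to −0.19 with single libraries left out) and 0.01 over all tested genes.

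VO LV was compared with sham LV to see the response of the left ventricle to the fistula. Xirp1, Ankrd1, Nrap, Xirp2 and Des had higher levels in every VO LV library than in any sham LV library, by folds of 1.41 to 1.85. None of the 9 members was called, against 0.0935% of all genes (13 genes), so these are values with unadjusted differences only. At the unadjusted threshold 5 of 9 members differed, against 15.7% of genes. The VO LV libraries lay wholly above sham LV for 6 members (the same 5 and Fhl1), against 16.7% of genes, and wholly below for 0, against 15.7%. The median log2 difference was 0.49 over the members and −0.02 over all genes.

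Among the stretch sensors, Ankrd1 was 743, 896 and 1036 FPKM in VO LV, above the 510 to 668 FPKM of sham LV. Its log2 difference was 0.58 (standard error 0.14, limma adjusted p = 0.0603). Csrp3 stayed within the sham LV spread for 2 of its 3 libraries, at 441, 371 and 444 FPKM (−0.10, 95% interval −0.54 to 0.34). Of the four-and-a-half LIM domain proteins, which bind titin and signalling kinases, Fhl1 (X chromosome, 159112880 to 159172524, plus strand) was 158, 180 and 182 FPKM in sham LV and 201, 196 and 259 FPKM in VO LV. These groups did not overlap (0.33, standard error 0.12, limma adjusted p = 0.138), and the difference was 0.20 without VO LV replicate 3. Fhl2 (chromosome 9, 49920854 to 49950093, minus strand) was 602, 612 and 621 FPKM in sham LV and 621, 551 and 807 FPKM in VO LV, so the VO LV libraries lay on both sides of the sham range (0.09, 95% interval −0.26 to 0.45).

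The Xin-repeat genes had the largest values in this comparison. Xirp1 reached 32.0, 33.4 and 46.5 FPKM in VO LV, each above the 23.6 FPKM of the highest sham LV library. Its log2 difference was 0.89 (standard error 0.18, limma adjusted p = 0.0517). Xirp2, the other Xin-repeat gene (chromosome 3, 53563194 to 53658132, plus strand), was 5.42, 3.61 and 4.64 FPKM in sham LV and 7.39, 6.55 and 9.22 FPKM in VO LV. The 2 groups were again separate (0.71, standard error 0.18, limma adjusted p = 0.0703). VO LV replicate 3 was the highest of the 12 for both genes.

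Nrap, an actin-binding scaffold of myofibril assembly (chromosome 1, 277104514 to 277181414, minus strand), was 41.1, 40.3 and 44.7 FPKM in sham LV and 61.3, 59.8 and 64.7 FPKM in VO LV. The separation was wide relative to the spread, at 42.0 ± 2.34 and 61.9 ± 2.51 FPKM (SD, n = 3; log2 difference 0.56, standard error 0.12, limma adjusted p = 0.0534). Des, the desmin gene (chromosome 9, 82556573 to 82564294, plus strand), was 447, 392 and 460 FPKM in sham LV and 598, 562 and 667 FPKM in VO LV. It too did not overlap (0.49, limma adjusted p = 0.0887). Myoz2, the calcineurin-binding Z-disc protein calsarcin-1 (chromosome 2, 227180886 to 227207635, minus strand), was 361, 363 and 423 FPKM in sham LV and 393, 386 and 472 FPKM in VO LV. These ranges overlapped (0.12, 95% interval −0.20 to 0.45).

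The count of called members in the LV depended on the processing, as did that of all genes. It was 4 with array weights (Xirp1, Xirp2, Nrap and Des), where 704 genes were called in all. It was 4 with voom on the recovered reads (Ankrd1, Xirp1, Xirp2 and Nrap; 341 genes) and 2 with a filter at a mean of 1 FPKM (Xirp1 and Nrap; 183 genes). Without sham LV replicate 3 it was 2 (307 genes), without VO RV replicate 1 it was 3 (174 genes), and without VO RV replicate 3 it was 4 (554 genes). Y-linked signal was present in 2 of 3 sham LV libraries and in 0 of 3 VO LV libraries. With that signal as a covariate the log2 difference was 0.77 for Xirp1, 0.60 for Ankrd1 and 0.47 for Nrap, each with a limma adjusted p of 0.267.

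VO RV was compared with sham RV for the response of the right ventricle. No member was called, and 0 of all 13910 genes were (0%). At the unadjusted threshold there were 0 members, against 4.91% of genes. Xirp1 was 36.3, 27.1 and 27.1 FPKM in VO RV, wholly below the 37.8 to 39.7 FPKM of sham RV (log2 difference −0.35, standard error 0.18, limma adjusted p = 0.617). It was the 1 member below without overlap, against 6.87% of genes, and 0 lay above, against 5.64%. Nrap was 51.5, 42.9 and 35.6 FPKM in VO RV and 53.3, 55.9 and 50.1 FPKM in sham RV, with 1 library inside the sham range (−0.30, standard error 0.12, limma adjusted p = 0.560). Des was 600, 424 and 403 FPKM against 537, 586 and 571 FPKM (−0.27), and Xirp2 was 6.29, 4.57 and 4.05 FPKM against 6.24, 5.82 and 5.33 FPKM (−0.22). In these genes VO RV replicate 1 was the highest of its group, so the VO RV spread was wide. With single libraries left out the difference ran from −0.43 to −0.17 for Nrap, from −0.45 to −0.16 for Des and from −0.39 to −0.10 for Xirp2, lowest without VO RV replicate 1 and highest without VO RV replicate 3.

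The remaining members had overlapping groups in the RV. Ankrd1 was 917, 827 and 950 FPKM in VO RV, on both sides of the sham RV range (0.07, 95% interval −0.23 to 0.37). Csrp3 was 361, 315 and 401 FPKM against 324, 356 and 190 FPKM (0.35, 95% interval −0.08 to 0.79), and its difference was 0.08 without sham RV replicate 3. Fhl1 was 163, 166 and 153 FPKM against 149, 176 and 173 FPKM (−0.04). Fhl2 was 713, 471 and 569 FPKM against 610, 690 and 700 FPKM (−0.21), and from −0.36 to −0.06 with single libraries left out. Myoz2 was 422, 324 and 346 FPKM against 303, 407 and 406 FPKM (−0.03). The median log2 difference was −0.21 over the members (−0.36 to −0.07 with single libraries left out) and 0.00 over all genes.

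VO LV and VO RV were compared to see how the ventricles differed under the fistula. None of the 9 members was called, against 0.00719% of genes (1 gene). At the unadjusted threshold 3 members differed (Nrap, Fhl1 and Xirp2), against 7.4% of genes. The same 3 were higher in each VO LV library than in any VO RV library, against 8.45% of genes, and 0 were wholly lower, against 7.69%. The log2 differences were 0.53 for Nrap (limma adjusted p = 0.239), 0.43 for Fhl1 (0.257 likewise) and 0.59 for Xirp2 (0.293 likewise). Nrap was called when VO RV replicate 1 was left out, among 48 genes in all. Xirp1, called between the sham ventricles, averaged 37.3 ± 7.99 FPKM in the LV and 30.2 ± 5.32 FPKM in the RV under VO (SD, n = 3), with a log2 difference of 0.29 (95% interval −0.09 to 0.68). That difference was 0.13 without VO LV replicate 3 and 0.03 with the ventricular cardiomyocyte covariate. Ankrd1 stood at 891 ± 146 and 898.1 ± 63.9 FPKM (−0.02, 95% interval −0.32 to 0.28).

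The difference between the responses of the ventricles was tested directly, as VO minus sham in the LV less VO minus sham in the RV. It was called for Xirp1 and Nrap, 2 of 9 members, against 4.19% of all genes. For Xirp1 the difference was 1.24 on the log2 scale (standard error 0.25, limma adjusted p = 0.0317), from 0.89 in the LV and −0.35 in the RV. For Nrap it was 0.86 (standard error 0.17, limma adjusted p = 0.0303), from 0.56 and −0.30. Des (0.76, limma adjusted p = 0.0578), Xirp2 (0.92, 0.0623 likewise) and Ankrd1 (0.51, 0.131 likewise) were positive and not called. At the unadjusted threshold 5 members differed, these and the called pair, against 23.1% of genes. Csrp3 was the 1 negative member (−0.45, 95% interval −1.07 to 0.17), at −0.18 without sham RV replicate 3. The median was 0.51 over the members and −0.04 over all genes. The sham LV and sham RV libraries that enter this contrast also enter the comparison of the sham ventricles, so the sham difference and the difference of the responses are not separate observations.

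**Figure D2:**
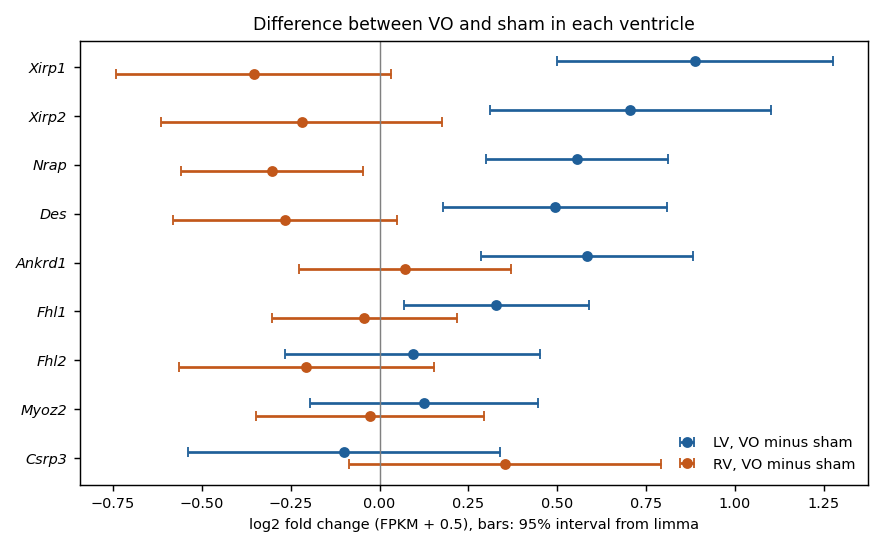
Log2 fold change of FPKM + 0.5, VO minus sham, for each gene in the LV (blue) and the RV (orange), with 95% intervals from limma. The LV values run from −0.10 (Csrp3) to 0.89 (Xirp1) and the RV values from −0.35 (Xirp1) to 0.35 (Csrp3), and Xirp1 and Nrap have the called differences between ventricles.

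Both calls depended on single libraries. They were lost for both genes without sham LV replicate 1 or 2, sham RV replicate 1 or 2, or VO LV replicate 2 or 3, and for Xirp1 without VO RV replicate 3 (adjusted p from 0.0580 to 0.0898). The losses covered the whole table, with 583 genes called over all libraries and 0 to 4 in the fits that lost both members. Without VO RV replicate 1, Xirp2 and Des were called as well, among 1003 genes. The replicate number as a fixed block also ended both calls (limma adjusted p = 0.0637 for Xirp1 and 0.0703 for Nrap), and 1 gene in all was called. With the atrial markers as a covariate Xirp1 and Nrap kept their calls (1.23 and 0.86, limma adjusted p = 0.0252 and 0.0229) and Des was called too. With the 2 libraries high in atrial markers left out together, 0 members and 2 genes in all were called, while the differences stayed at 1.15 for Xirp1 and 0.86 for Nrap (limma adjusted p = 0.0871 and 0.0794). With the ventricular cardiomyocyte markers as a covariate, 0 members and 0 genes in all were called by limma. In the latter fit the difference was 0.94 for Xirp1 and 0.77 for Nrap (limma adjusted p = 0.107 and 0.106). The markers in that covariate include Ryr2 and Myh6, which were themselves called for this contrast, so the covariate carries part of it. With each library's gene-length trend removed, the difference was 1.10 for Xirp1 and 0.73 for Nrap, both with a limma adjusted p of 0.0447. That trend, a slope of log2 deviation on log2 gene length, was between −0.0595 and −0.0277 in sham LV, between 0.00155 and 0.0451 in VO LV, between −0.000634 and 0.0510 in sham RV and between −0.0339 and 0.0355 in VO RV. Xirp1 and Nrap have listed lengths of 6017 and 5557 bases, and Xirp2, which was not called, has 12117 bases. For Xirp2 the difference was 0.92, and 0.69 with the trend removed (limma adjusted p = 0.141). The part of gene length in these differences was not tested.

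The members also varied by library within groups. Relative to their means over the 12 libraries, 1 to 3 of 9 members were above the mean in the sham LV libraries, 5 to 7 in sham RV and 7 to 9 in VO LV. In VO RV the libraries split, with 7 members above the mean in replicate 1, 1 in replicate 2 and 2 in replicate 3. The median deviation of the members was highest in VO LV replicate 3 (0.38) and lowest in sham LV replicate 2 (−0.29). Over all tested genes, most libraries had their nearest library in another group. VO RV replicate 3 was most similar to sham LV replicate 1 (Pearson's r = 0.979). Likewise, sham RV replicate 3 was nearest to VO RV replicate 1 (0.978) and sham LV replicate 3 to VO LV replicate 1 (0.976). VO RV replicate 2 was the library with the most atrial transcripts. Most members were low in VO RV replicates 2 and 3. The summed level of 8 macrophage markers was 61.5 and 69.8 FPKM in VO RV replicates 3 and 2, against 37.3 to 49.2 FPKM in the other 10 libraries, and its part in the low values was not tested.

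**Figure D3:**
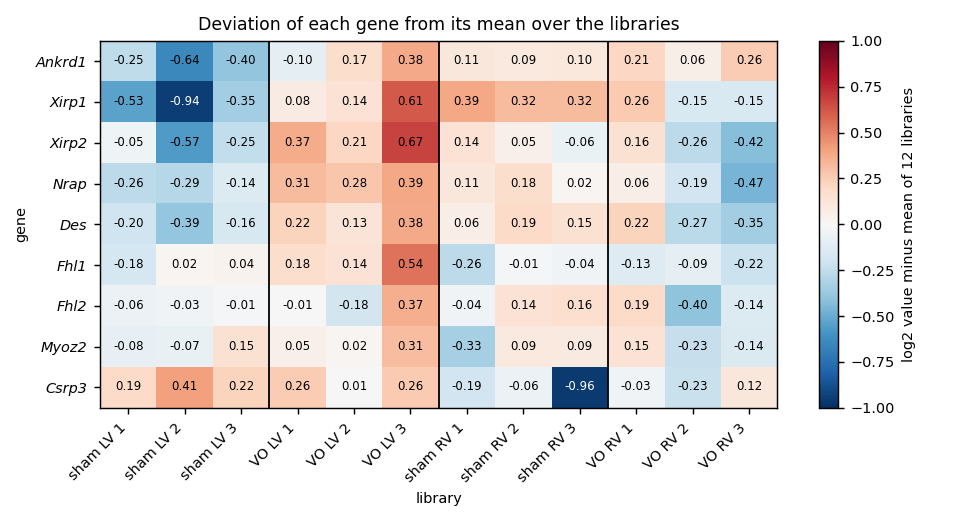
Deviation of each gene (rows) from its mean log2 value over the 12 libraries, for each library (columns, grouped as sham LV, VO LV, sham RV and VO RV by vertical lines). Red is above and blue below the mean; VO LV replicate 3 is above the mean for all 9 genes, and the VO RV libraries differ among themselves.

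Across the 12 libraries, 9 of the 36 pairs of members had a Pearson's r over 0.7 and 5 had a negative r. The strongest pairs were Nrap and Des (0.93), Xirp2 and Des (0.91) and Xirp2 and Nrap (0.90). With group means removed, 10 pairs were over 0.7, and Nrap and Des remained at 0.86. Csrp3 was the exception. Over the 12 libraries its r was −0.44 with Xirp1 and −0.38 with Ankrd1, and with group means removed these were −0.02 and −0.04. These are descriptions over 12 points that share the same libraries, groups and composition, and carry no test.

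**Figure D4:**
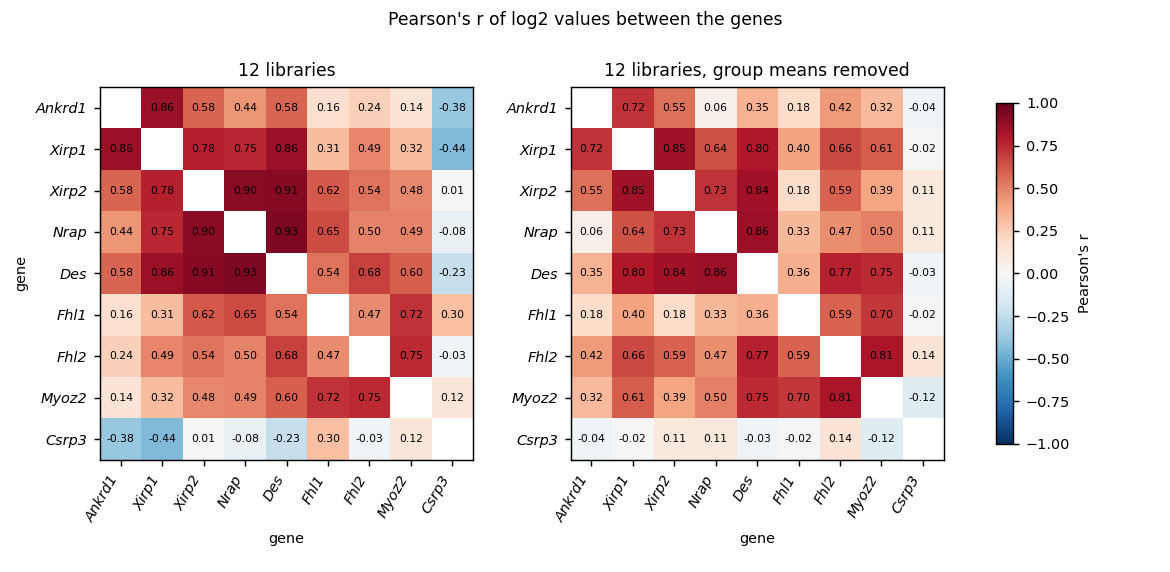
Pearson's r of log2 values between each pair of the 9 genes over the 12 libraries (left) and after subtraction of each group's mean (right). Nrap, Des, Xirp1 and Xirp2 form a block of high values on the left, from 0.75 to 0.93, where the values of Csrp3 lie between −0.44 and 0.30. On the right the pairs of this block lie between 0.64 and 0.86, and Des is also high with Fhl2 (0.77) and Myoz2 (0.75).

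Among 12666 genes with a mean of at least 1 FPKM, those whose log2 levels were most like a member's over the 12 libraries were found for each member. Xirp1 was nearest to Srl, the sarcoplasmic reticulum protein sarcalumenin (r = 0.99), and to Srf, the serum response factor (0.98). Nrap was nearest to Myom2, the M-band protein myomesin 2 (0.98), and Des to Hcn2 (0.98), a pacemaker channel gene. Ankrd1 was nearest to Palldl1 (0.95) and to Rcan1 (0.93), a calcineurin regulator. Xirp2 was nearest to Arhgap1 (0.97), Myoz2 to the mitochondrial malate dehydrogenase gene Mdh2 (0.93), Fhl2 to Uqcc1 (0.91), Fhl1 to Fastkd2 (0.88) and Csrp3 to the metallothionein gene Mt1 (0.87). The values of Csrp3 and Fhl1 were thus the least closely matched.

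Other genes of the Z-disc and its attachments were taken from lists of known partners, chosen with earlier results of these data known. Of 21 tested Z-disc partners, 7 were called lower in the LV of sham rats than in their RV and 0 were called higher, against 3.86% of all genes called in either direction. These included Synpo2l, which binds actin at the Z-disc (−1.79 on the log2 scale, limma adjusted p = 0.0319), its relative Synpo2 (−1.44), Cmya5 (−1.17), the actin-bundling protein gene Palld (−1.09) and Filip1 (−0.65). In the LV, Synpo2l was 21.9 ± 7.62 FPKM after sham surgery and 72.2 ± 18.8 FPKM after VO, and in the RV it was 74.5 ± 14.1 and 41.3 ± 12.7 FPKM (SD, n = 3). None of the 21 was called for VO in the LV, where 11 passed the unadjusted threshold with higher values (15.7% of all genes in either direction), or for VO in the RV. The responses of the ventricles differed for 9, all more positive in the LV, against 4.19% of all genes. These included Synpo2l (2.61), Palld (1.55), Pdlim5 (1.40), a PDZ and LIM protein that binds alpha-actinin, the filamin gene Flnc (1.34) and Mypn (0.81), the partner of Ankrd1 at the Z-disc. The median of the list was 0.62 for this contrast, and sham LV libraries enter both contrasts with calls.

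The transcriptional regulators of such genes gave values of the same kind. Of 7 tested SRF, myocardin, MEF2 and TEAD regulators, 3 were called lower in sham LV (3.86% of all genes were called): Srf (−0.73, limma adjusted p = 0.0319), its cofactor Myocd (−0.85) and Mef2d (−0.67). None was called for VO in either ventricle, although 5 had higher values in VO LV at the unadjusted threshold (15.7% of all genes). The response differed between ventricles for 5, against 4.19% of all genes, namely Tead1 (1.59), Myocd (1.38), Mef2a (1.29), Mef2d (1.11) and Srf (0.93). Srf stood at 38.7 ± 3.66 FPKM in sham LV and 63.4 ± 12.9 FPKM in VO LV, and at 64.5 ± 2.87 FPKM in sham RV and 54.5 ± 3.61 FPKM in VO RV (SD, n = 3).

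The other lists held fewer calls. Of 14 integrin and costamere mechanosensors, which couple the Z-disc to the matrix, 0 were called for either response or between the sham ventricles (3.86% of all genes in the latter), and 2, the talin gene Tln2 (1.37) and Lims1 (1.06), were called for the difference of the responses, against 4.19% of all genes. Among 11 load and stretch markers 1, the natriuretic peptide gene Nppb, was higher in sham LV against 3.86% of all genes called (1.20, limma adjusted p = 0.0325), at 227 ± 14.5 FPKM against 102 ± 31.9 FPKM (SD, n = 3). For the difference of the responses 1 of the 11 was called, the slow myosin heavy chain gene Myh7 (1.18), against 4.19% of all genes. The median of this list for that contrast was 0.005. For VO, 0 were called in the LV (0.0935% of all genes) or in the RV (0%). At the unadjusted threshold 4 had higher values in VO LV, against 15.7% of all genes in either direction. In VO RV, 4 had higher values and 1 had a lower value, against 4.91%. Of 7 tested paralogs of the members, 0 were called by limma in any comparison, where 0% to 4.19% of all genes were. The intermediate filament gene Vim, a relative of Des, averaged 616 ± 63.8 FPKM in the LV after sham surgery and 477 ± 18.9 FPKM after VO (SD, n = 3), and its difference of responses was −0.66 (limma adjusted p = 0.0555).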

How the data were processed

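RNA of LV and RV free walls was sequenced by the authors from poly(A)-selected libraries. Per the labels and methods, reads were aligned with HISAT2 2.0.5 and counted per gene with featureCounts 1.5.0-p3, and the deposited values are FPKM, which the authors derived from those counts. The genome build, annotation release and strand setting are not given in the sources used here, so gene positions are those of the deposited table and no promoter of GRCr8 was joined to them by coordinates. Without a stated strand setting, reads of overlapping antisense genes cannot be told apart. Reads per gene were recovered from FPKM and gene length: 100% of values up to 200 reads came out whole within 0.02.

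The log2 of FPKM, scaled by size factors (median of ratios) and raised by 0.5, was modelled over 12 libraries in 4 groups taken from the labels, using limma 3.58.1 under R 4.3.3 with lmFit, contrasts.fit and a trended eBayes. Genes with a mean under 0.5 FPKM were left out. The authors tested counts with DESeq2, which was not run here, and voom on the recovered reads was the alternative based on counts. Intervals cover 95%. Samples came with replicate numbers, which were not used as pairs. The 10 genes and all gene lists were chosen with earlier results of these data known. All 10 are described. From each other list, up to 5 called genes with the smallest adjusted p are named, or up to 3 values where none was called. For likeness, the 3 nearest genes of each member were found and 1 or 2 of them are named. Alternatives were other scalings, pseudocounts, filters, fits, covariates and weights, voom on the recovered reads, removal of the gene-length trend, and each library left out. The covariate of ventricular cardiomyocyte markers and the joint omission of 2 libraries were chosen after seeing the data.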

Additional observations from a re-analysis of the deposited data

Results flagged for a closer look

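The response to VO differed between the LV and the RV, by the interaction term of the limma model, for 18 genes that the text names. Each difference is the LV response minus the RV response on the log2 scale. Among the members these were Xirp1 (1.24, from 0.89 and −0.35) and Nrap (0.86, from 0.56 and −0.30). Among Z-disc partners they were Synpo2l (2.61, from 1.73 and −0.88), Palld (1.55, from 0.98 and −0.57), Pdlim5 (1.40, from 0.80 and −0.60), Flnc (1.34, from 1.00 and −0.34) and Mypn (0.81, from 0.49 and −0.32). Among mechanosensors and load markers they were Tln2 (1.37), Myh7 (1.18) and Lims1 (1.06). Among regulators they were Tead1 (1.59), Myocd (1.38), Mef2a (1.29), Mef2d (1.11) and Srf (0.93). Among cell type markers they were the cardiomyocyte genes Ryr2 (1.61) and Myh6 (0.89) and the macrophage gene C1qb (−0.92, from −0.19 and 0.73). In 17 of the 18 the LV value was above 0 and the RV value below 0, and in C1qb it was the reverse. No response was called in either ventricle alone for these genes, and all rest on the same 12 libraries. The calls over all genes were 481 positive and 102 negative. Of these 583 calls 0 were left without sham LV replicate 1 or 2, sham RV replicate 1, or VO LV replicate 2 or 3, and 4 genes were called without sham RV replicate 2. The calls of all 18 were lost in each of those fits that gave 0.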

How the results depend on the processing

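Over 28 alternatives, 1151 of 1251 values of single members kept their direction and their side of the threshold, 30 lost a call, 44 gained one and 26 changed sign. Most of these values belong to results without a call, which had none to lose. Xirp1 lost its call between the sham ventricles in 9 of 28 alternatives. For the difference of the responses, Xirp1 lost its call in 11 of 27 and Nrap in 10 of 27. The median over the members kept its sign in each comparison but moved. With single libraries left out it ran from −0.37 to −0.19 between the sham ventricles. It ran from 0.42 to 0.55 for VO in the LV and from −0.36 to −0.07 for VO in the RV. For the difference of the responses it ran from 0.40 to 0.64, and up to 0.68 in the other alternatives. With 3 libraries a group, several members lay close to the threshold, and the cause of the changes below was not tested.

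For sham LV against sham RV (1 called), 3 were called with quantile normalization, 2 with a filter at a mean of 1 FPKM, array weights, voom on the recovered reads, the Y-linked covariate, the length trend removed or the cardiomyocyte covariate, and 0 with no filter or with sham RV replicate 1 and VO RV replicate 2 both left out. With single libraries left out the count was 0 to 2. The calls over all genes moved as well, from 537 to between 0 (without sham RV replicate 1) and 1321 (array weights). For VO LV against sham LV (0 called), it was 4 with array weights or voom, 3 with the atrial covariate, 2 with a filter at 1 FPKM and 1 in a fit of the 6 libraries compared, and 0 to 4 with single libraries left out, while the calls over all genes reached 704 from 13. For VO RV against sham RV it was 0 throughout, and for VO LV against VO RV 0 to 1 with single libraries left out. For the difference of the responses (2 called), it was 4 with voom and 0 with no filter, the cardiomyocyte covariate or the 2 libraries left out, and 0 to 4 with single libraries left out. Over all genes it was 583, 802 with voom and 0 to 1003 with single libraries left out.

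The replicate numbers were not established as pairs, so the replicate block was only an alternative. Same-numbered LV and RV libraries had deviations correlated at r = 0.04, 0.04 and 0.12 in sham and 0.05, −0.05 and −0.22 in VO. Y-linked signal matched between the LV and RV for all 3 sham numbers. It did not match for VO number 3, at 0.296 FPKM in the LV and 56.1 FPKM in the RV, so that number does not mark 1 rat. With the number as a fixed replicate block, 0 members were called between the sham ventricles (3 genes in all) and 0 for the difference of the responses (1 gene in all; Xirp1 0.0741 in the former, by limma adjusted p). With a random replicate block of treatment and number, 2 were called for VO LV against sham LV (188 genes in all), and the other counts were 1, 0, 0 and 2.

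Values near 0 changed sign. Between the sham ventricles Fhl1 became −0.00344 with array weights and −0.0159 with both libraries left out (−0.02 to 0.13 with single libraries left out), and Myoz2 became −0.10 with quantile normalization, −0.0188 with the atrial covariate, −0.0381 with the length trend removed and −0.0923 with both libraries left out (−0.0923 to 0.12 with single libraries left out). For VO in the LV, Csrp3 became 0.16 with the Y-linked covariate, and with the cardiomyocyte covariate Fhl2 became −0.0931 and Myoz2 −0.0250 (Fhl2 −0.0604 to 0.21 with single libraries left out). For VO in the RV, Myoz2 became 0.0192 with the atrial and 0.0869 with the cardiomyocyte covariate (−0.17 to 0.0516 with single libraries left out), and Fhl1 ran from −0.12 to 0.00256. Between the VO ventricles, Fhl2 became −0.11 and Myoz2 −0.0281 with the cardiomyocyte covariate, and Ankrd1 ran from −0.14 to 0.10. For the difference of the responses, that covariate gave −0.0272 for Fhl2 and −0.11 for Myoz2.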
